A study of Mus musculus with 12 samples.

Results

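The genes described here are 10 markers of mural cells, the contractile and supporting cells that wrap blood vessels. They were read in thymic epithelium/stroma of day 7 pups of the FCG mouse, a model that parts the effects of gonads from those of sex chromosomes. Acta2, Tagln, Myh11, Cnn1 and Des stand for the contractile apparatus of vascular smooth muscle, and Cspg4, Pdgfrb, Rgs5, Mcam and Abcc9 for pericytes. They are 10 of the 19938 genes that could be named from a probe set with a single symbol, and each had 1 such probe set.

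Gonads in these mice, kept on a C57BL/6J background, follow an autosomal Sry transgene rather than the Y chromosome, from which Sry is deleted, so both XX and XY pups are born with either type of gonad. The 12 arrays came from 2 XY gonadal males (XYM), 4 XX gonadal males (XXM), 3 XY gonadal females (XYF) and 3 XX gonadal females (XXF). The methods describe repeated washing to remove thymocytes before the remnant was frozen. The sources used here do not say that each array is a separate pup, so p-values measure only the spread between these arrays.

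Pericytes sit in the basement membrane of capillaries and venules and are held there by platelet-derived growth factor from the endothelium acting on Pdgfrb. Smooth muscle cells ring arteries and larger vessels and contract through actin and smooth muscle myosin. In the thymus, mural cells line the vessels through which progenitors enter and mature T cells leave.

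None of the 10 genes passed the test for gonadal sex, for chromosomal complement, for their interaction or between any pair of genotypes. Several of the highest signals fell on the same few arrays. Acta2, Tagln and Cnn1 were highest on XXM array 6, Des was highest on XXM array 10, and Pdgfrb, Rgs5, Mcam and Abcc9 were highest on XYF array 4. Rgs5 and Mcam varied with genes of the endothelium, and Myh11 with genes of the thymic epithelium.

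Arrays are named by genotype and by the number in their label, 1 to 12. Median signal was 328 to 346 on the 12 arrays, in linear intensity units. The first principal component held 32.5% of the variance and separated arrays 9 to 12, with scores of 8.18 to 28.3, from arrays 1 to 8, with scores of -15.7 to -1.91. Sets of 4 arrays with consecutive numbers each held 2 male and 2 female arrays. XXM arrays 6 and 10 stood apart in 6 cardiac muscle genes, whose summed signal was 8895 and 47121, against 1548 to 2261 on the other 10 arrays. Myh6, a cardiac myosin heavy chain, read 1590 on array 6 and 9909 on array 10. Array 10 lay above the other 10 arrays in all 6 cardiac genes and array 6 in 5 of them, the exception being Nppa. The summed signal of 22 skeletal muscle genes was 11036 on array 6 and 17093 on array 10. On the other 10 arrays that sum was 4714 to 6479. Array 6 lay above the other 10 arrays in 13 of these genes and array 10 in 8. The largest signal on both arrays was that of Actc1, the cardiac alpha-actin, which is counted in the skeletal list. It read 3015.5 on array 6 and 9407 on array 10, where Ttn followed at 1923. A large part of the skeletal sum on array 10 was thus Actc1. On the other 10 arrays Actc1 read 221 to 281 and Ttn 211 to 326. Acta1, the skeletal muscle alpha-actin, read 1623 on array 6 and 374 on array 10, against 332 to 586. Both arrays belong to XXM, so the main values are also given without them, and their part in the results was otherwise not tested.

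Of the 10 genes, 9 had a mean signal above 309.5, the 95th percentile of the means of 1035 olfactory receptor probe sets, which stand for genes that are silent in this tissue. Cnn1, with a mean of 144 ± 30.0 (SD, n = 12), was below that level and below the 90th percentile of 232. Tagln and Cspg4 lay between the 95th and the 99th percentile of 459. The remaining 7 were above it. Over all named genes, 11272 of 19938 had a mean above the 95th percentile. A signal above that level shows that a gene was read, not that mural cells supplied it. The tissue's own markers were present, with 11 of 12 thymic epithelial genes above the same level, as were all 14 endothelial genes. Thymocyte genes were also present, with all 12 measured genes above the level and a summed signal of 36236 to 42222. In whole tissue, fewer cells of a type and less RNA per cell cannot be told apart.

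**Figure D1:**
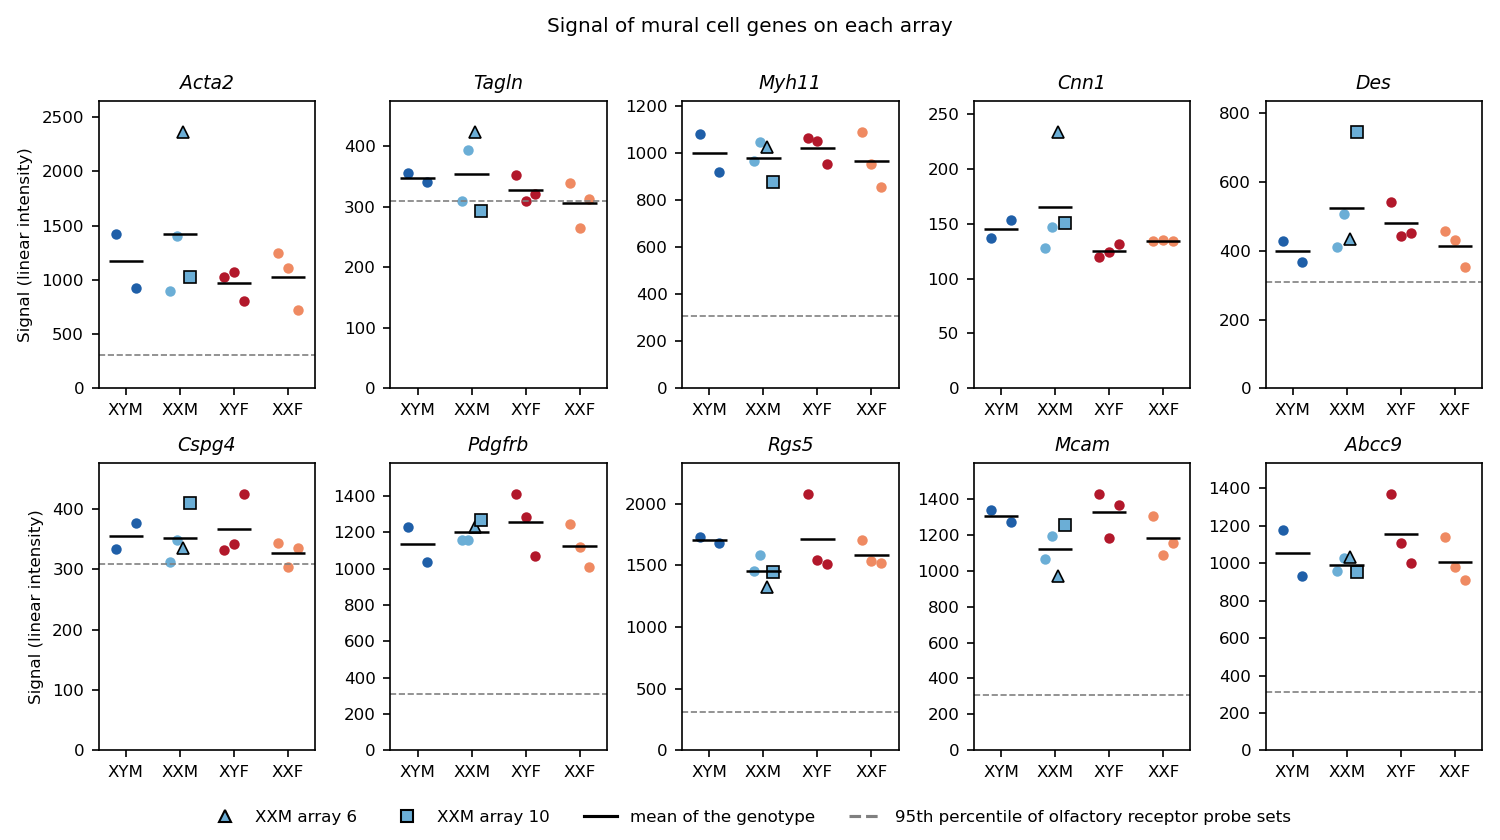
Signal of each gene on each array (vertical axes, linear intensity from 0; horizontal axes, genotype). Points are arrays, bars are genotype means, a dashed line marks the olfactory receptor level of 309.5, and XXM arrays 6 and 10 have their own symbols. Acta2 reached 2362 on array 6 and Des 745 on array 10, while all 12 Cnn1 points lay below 309.5.

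Among the contractile genes, Acta2 encodes smooth muscle alpha-actin, the main actin of vascular smooth muscle. Its signal was 1423 and 927 on XYM arrays, 902, 1405, 2362 and 1028 on XXM arrays, 1025, 1075 and 802 on XYF arrays and 1246, 1114 and 719 on XXF arrays. The 6 male arrays averaged 1341 ± 551 and the 6 female arrays 997 ± 199 (SD). The ranges overlapped, and array 6 lay far above every other array. The fitted difference, male minus female, was 0.33 on the log2 scale (SE 0.24, limma adjusted p = 0.985). Without arrays 6 and 10 it was 0.22 (SE 0.20, limma adjusted p = 1.00). Leaving out 1 array at a time gave 0.18 to 0.49 for Acta2, with 0.18 without XYM array 1, 0.19 without XXM array 6 and 0.21 without XXF array 11.

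Acta2 and Cnn1 are shown by the sequence just upstream of their annotated start, because both were highest on array 6 and because the CArG box, the site bound by serum response factor, is known from promoters of contractile genes. RefSeq windows of GRCm38.p6 were at hand for 7 of the 10 genes. No exact CArG box lay in the 250 bases before the start in any of the 7, and 1.47% of all 32851 windows held one there. Allowing 1 letter off, a search chosen after the exact one found none, gave 2 matches in Acta2, at -84 and -34 from the start, and 2 overlapping ones in Cspg4. Of all windows, 18.6% held such a match. Both strands read the same motif, and capitals mark the matches in Acta2 (chr19:34255374-34255623, minus strand), while Cnn1 (chr9:22099003-22099252, plus strand) had none.
Acta2: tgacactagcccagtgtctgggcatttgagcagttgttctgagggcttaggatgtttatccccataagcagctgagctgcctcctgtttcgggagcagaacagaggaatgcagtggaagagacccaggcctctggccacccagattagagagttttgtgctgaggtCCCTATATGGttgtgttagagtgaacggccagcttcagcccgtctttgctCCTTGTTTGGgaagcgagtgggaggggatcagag
Cnn1: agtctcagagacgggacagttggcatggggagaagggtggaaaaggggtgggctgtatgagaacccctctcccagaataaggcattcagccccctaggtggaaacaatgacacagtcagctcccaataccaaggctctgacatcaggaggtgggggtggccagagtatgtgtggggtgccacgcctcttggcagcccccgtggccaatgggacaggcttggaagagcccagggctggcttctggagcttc
Matches are given as runs of letters only, since no binding was measured here.

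Cnn1 encodes calponin 1, an actin-binding protein of differentiated smooth muscle. Its signal was 137 and 153 on XYM arrays, 128, 147, 234 and 151 on XXM arrays, 120, 124 and 132 on XYF arrays and 134, 135 and 134 on XXF arrays. In 5 of 6 male arrays the signal was above all 6 female arrays, and XXM array 2 was the exception. The fitted difference, male minus female, was 0.24 (SE 0.13, limma adjusted p = 0.985), and without arrays 6 and 10 it was 0.12 (SE 0.071, limma adjusted p = 1.00). Without XXM array 6 alone the Cnn1 difference was 0.15, and its XY minus XX difference, between -0.18 and -0.085 without any other single array, was -0.034. An exact two-sided permutation test over the 924 groupings of 6 and 6 arrays gave p = 0.0238, and without arrays 6 and 10 it gave p = 0.0905 over 210 groupings. It was 1 of 20 such tests, for 10 genes and both factors, and all of its signals lay below the olfactory receptor level.

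Des encodes desmin, the intermediate filament of muscle that pericytes also carry. It read 429 and 367 on XYM arrays, 410, 507, 435 and 745 on XXM arrays, 543, 444 and 452 on XYF arrays and 458, 431 and 352 on XXF arrays. Array 10, the array richest in cardiac genes, was above the rest, and the next highest was XYF array 4. The difference, male minus female, was 0.022 (SE 0.14), and it was -0.059 (SE 0.11) without arrays 6 and 10. Its fitted differences had opposite signs within the complements. XYM minus XYF was -0.27 (SE 0.22) and XXM minus XXF was 0.31 (SE 0.19), but the interaction did not pass the test (-0.57, SE 0.29, limma adjusted p = 1.00). Without arrays 6 and 10 these values were -0.27 (SE 0.15), 0.15 (SE 0.15) and, for the interaction, -0.41 (SE 0.22, limma adjusted p = 0.970).

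Tagln, which encodes transgelin, an actin-binding protein of early smooth muscle, read 357 and 340 on XYM arrays, 309, 393, 424 and 293 on XXM arrays, 352, 310 and 321 on XYF arrays and 340, 265 and 312 on XXF arrays. Its male minus female difference of 0.15 (SE 0.11) was 0.14 (SE 0.097) without arrays 6 and 10 and 0.097 without XXF array 7. Myh11, the smooth muscle myosin heavy chain, was the steadiest of the 10 genes over all 12 arrays. It ranged from 878 to 1080 on male arrays and from 855 to 1090 on female arrays, and differed by -0.0065 (SE 0.082), male minus female. Array 6, at 1026, was in the middle of its range, unlike that of Acta2.

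Among the pericyte genes, Mcam encodes the adhesion molecule CD146, found on pericytes and on endothelium. It read 1336 and 1269 on XYM arrays, 1425, 1179 and 1366 on XYF arrays, 1062, 1190, 967 and 1254 on XXM arrays and 1306, 1087 and 1154 on XXF arrays. The 5 XY arrays averaged 1315 ± 94.7 and the 7 XX arrays 1146 ± 117 (SD). The lowest XY array lay below 3 XX arrays, so the groups overlapped. XY minus XX was 0.19 (SE 0.085, unadjusted p = 0.0427, limma adjusted p = 1.00), and 0.19 (SE 0.085, limma adjusted p = 0.797) without arrays 6 and 10. In the latter fit the limma unadjusted p was no longer under 0.05. The exact two-sided permutation test gave p = 0.0278 over 792 groupings, and p = 0.0476 over 252 groupings without arrays 6 and 10. It belongs to the same family of tests as that of Cnn1, for every member and both factors, with no adjustment. The groupings did not hold gonadal sex fixed. In each set of 4 consecutive arrays XY was above XX, by 0.23, 0.13 and 0.13 on the log2 scale, though the middle set held a single XY array. All 14 endothelial genes had a fitted XY minus XX difference above 0 as well, with a median of 0.15 and no gene passing the test, against a median of 0.0061 over all named genes. The part of these genes in the difference of Mcam was not tested.

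Rgs5 encodes a regulator of G protein signalling that is a standard pericyte marker. It read 1731 and 1679 on XYM arrays, 2078, 1541 and 1515 on XYF arrays, 1458, 1587, 1324 and 1443 on XXM arrays and 1705, 1538 and 1520 on XXF arrays. XYF array 4 was the highest and XXM array 6 the lowest, the reverse of Acta2 for array 6. XY minus XX was 0.16 (SE 0.089, limma adjusted p = 1.00), and 0.13 (SE 0.099) without arrays 6 and 10. Without XYF array 4 alone the Rgs5 difference was 0.090.

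Abcc9, the sulfonylurea receptor subunit of a potassium channel of mural cells, averaged 1117 ± 170 on XY arrays and 999.7 ± 74.5 on XX arrays. Its XY minus XX difference was 0.14 (SE 0.096), and it was 0.052 without XYM array 1, 0.072 without XYF array 4 and 0.22 without XYM array 9. Pdgfrb, the receptor through which endothelium recruits pericytes, averaged 1206 ± 154 on XY arrays and 1169 ± 88.2 on XX arrays, a difference of 0.033 (SE 0.086). Cspg4, which encodes the NG2 proteoglycan of pericyte surfaces, averaged 362 ± 39.4 on XY arrays and 341 ± 34.2 on XX arrays, a difference of 0.087 (SE 0.090) that was 0.031 without XYF array 12 and 0.045 without XYM array 9. The 5 pericyte genes thus all had a fitted value above 0 for XY minus XX, and none passed the test. A fitted value above 0 was also found for 10595 of 19938 named genes, 11 of 12 thymic epithelial genes, 2 of 13 fibroblast genes and 1 of 12 thymocyte genes, and the part of these cell types in the pericyte values was not tested. Between gonadal males and females the fitted values ran between -0.074 and 0.030.

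**Figure D2:**
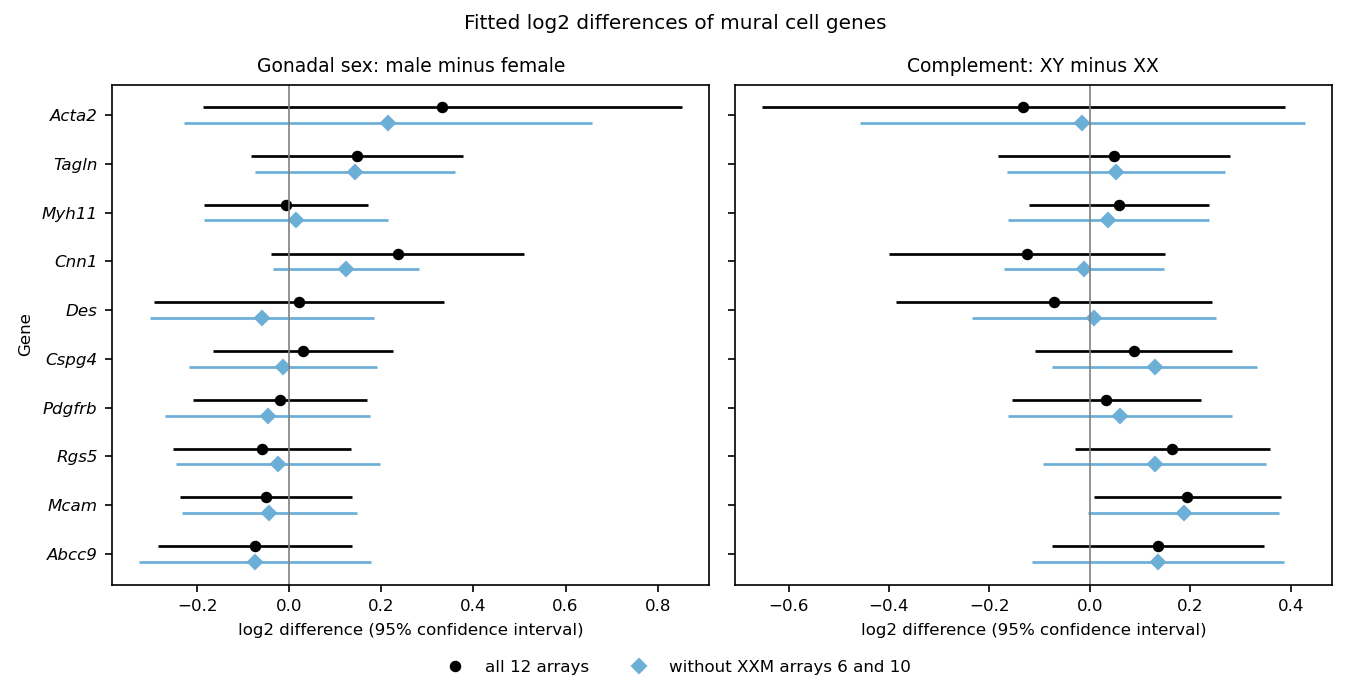
Fitted log2 difference of each gene with its 95% confidence interval (horizontal axes), for male minus female at left and XY minus XX at right. Black circles are fits to all 12 arrays and blue diamonds fits without XXM arrays 6 and 10. The interval of every gene spans 0 for sex, and Acta2 has the widest, -0.19 to 0.85.

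Counted over the set, 0 of 10 genes passed limma's adjusted threshold of 0.05 for gonadal sex, where 0.00281% of the 35556 probe sets did. At an unadjusted p under 0.05 the count was again 0 of 10, against 3.08% of probe sets. For chromosomal complement 0 of 10 passed after adjustment, against 0.0394%. Unadjusted, 1 of 10 did, Mcam, against 2.57% of probe sets. For the interaction 0 of 10 passed, against 0% of probe sets after adjustment, and 0 of 10 against 1.56% unadjusted. With so few probe sets called in the whole table, the absence of calls was not particular to these genes. The model of the methods, fitted without moderated variances, also called 0 of 10 for sex, complement and interaction, adjusted or not. The share of probe sets called under that model is not given here, so its counts have no background beside them.

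Between pairs of genotypes 0 of 10 genes passed for XYM minus XYF, against 0.00562% of probe sets, and 0 of 10 for XXM minus XXF, against 0.00281%. The same held for XYM minus XXM and for XYF minus XXF, against 0.0169% of probe sets in each. No gene had an unadjusted p under 0.05 in these 4 comparisons. The lowest was 0.0944, for Mcam in XYM minus XXM (0.23, SE 0.12). The intervals bound what could have been missed. For sex the 95% interval of Myh11 was -0.18 to 0.17 and that of Rgs5 -0.25 to 0.13, while that of Des, -0.29 to 0.34, left room for larger changes.

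The genes differed in their spread over arrays. The coefficient of variation over 12 arrays was 37.1% for Acta2, 22.1% for Des and 20.8% for Cnn1, against a median of 7.73% over 11272 named genes above the olfactory receptor level. Without arrays 6 and 10 it was 22.5% for Acta2, 13.1% for Des and 7.48% for Cnn1, against a median of 7.51%. Acta2 thus stayed variable without them, whereas Cnn1 came to the median. The other 7 genes had values of 8.15% to 13.0% over all arrays.

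Whether the genes varied together was asked over the 12 arrays, with Pearson's r and Spearman's rho of log2 signal for the 45 pairs. The median r was 0.21, against 0.10 over all pairs of the 11272 genes, and 30 of 45 pairs were above 0. Without arrays 6 and 10 the median was 0.42, against 0.13. The 10 contractile pairs had a median of 0.34, the 10 pericyte pairs 0.43 and the 25 mixed pairs 0.086. Without arrays 6 and 10 these were 0.43, 0.62 and 0.40, so the mixed pairs moved most.

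After adjustment over the 45 pairs, 3 passed by Pearson's r in a permutation test with 100000 resamples. Myh11 and Abcc9 had r = 0.81 and rho = 0.93 (adjusted permutation p = 0.0225 and 0.0036), and r = 0.79 without the 2 arrays farthest from the median of Myh11. Pdgfrb and Abcc9 had r = 0.81 and rho = 0.73 (adjusted permutation p = 0.0225 and 0.18), and r = 0.60 without the 2 farthest arrays. Rgs5 and Mcam had r = 0.77 and rho = 0.66 (adjusted permutation p = 0.0484 and 0.212), and 0.52 without the 2 farthest arrays. Only the first of these passed by rho. Over deviations from the means of the array sets, r of the 3 pairs was 0.68, 0.68 and 0.80.

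The relation of Acta2 and Cnn1 rested on array 6. Their r was 0.73 (rho 0.43, adjusted permutation p = 0.145 and 0.459). It was 0.18 without array 6 alone, against 0.72 to 0.78 without any other single array. It was 0.21 without arrays 6 and 10 and 0.19 without the 2 farthest arrays, XXM array 6 and XXF array 11. Acta2 and Myh11 went the other way, with r = 0.59 over all arrays and 0.82 without them. Cnn1 and Mcam had r = -0.58, and -0.096 without them.

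**Figure D3:**
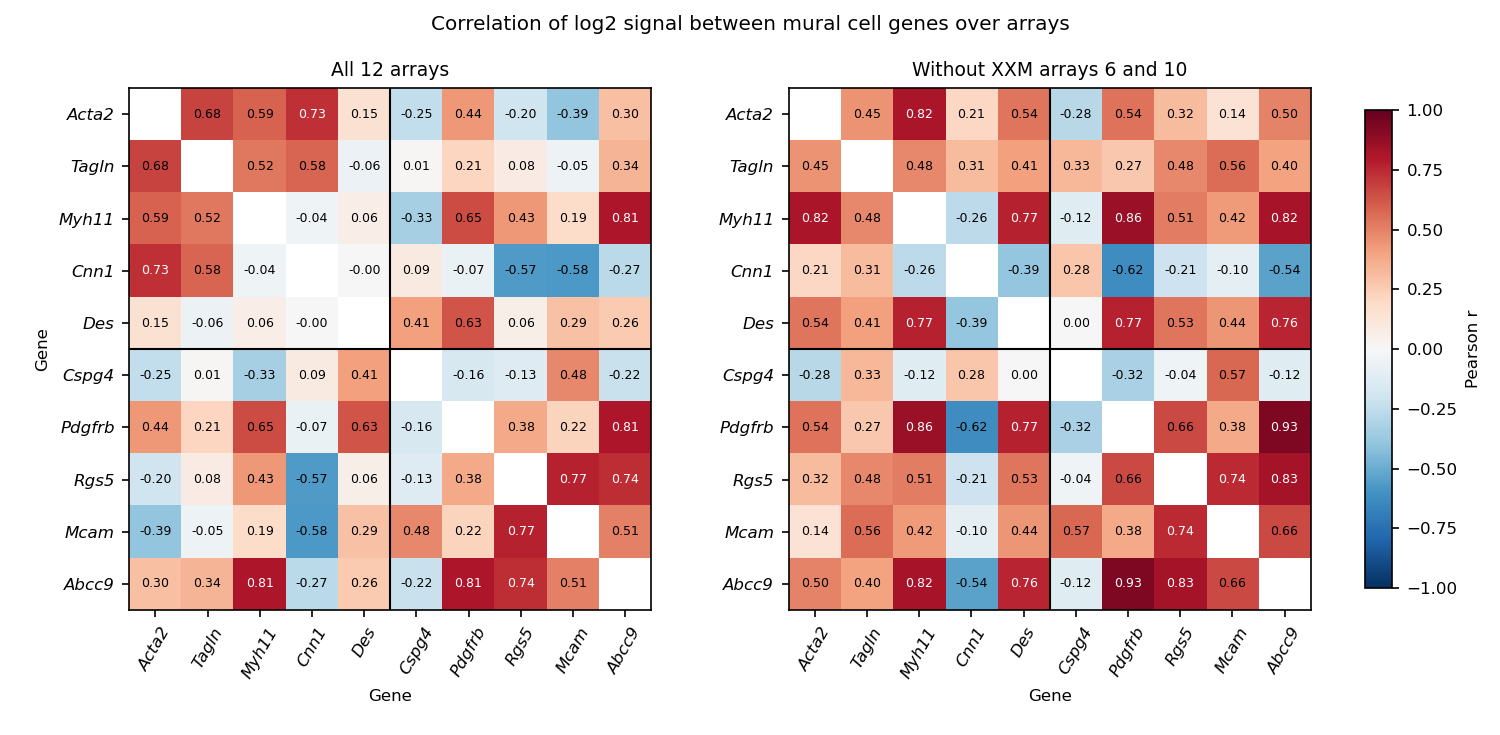
Pearson r of log2 signal for every pair of the 10 genes, in colour and as a number, over all 12 arrays at left and without XXM arrays 6 and 10 at right. Black lines part the contractile from the pericyte genes. Pdgfrb and Abcc9 had 0.81 at left and 0.93 at right, and Acta2 and Cnn1 0.73 and 0.21.

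Each gene was then set against the summed signal of 6 lists of other cell types, 60 relations in all. Mcam and 14 endothelial genes had r = 0.90 and rho = 0.93 (adjusted permutation p = 0.0024 and 0.003), and r = 0.90 without the 2 farthest arrays. Rgs5 and the same genes had r = 0.89 and rho = 0.72 (adjusted permutation p = 0.0078 and 0.104), and r = 0.63 without the 2 farthest arrays. Both genes were lowest on XXM array 6, where the endothelial sum was lowest at 11069, and highest on XYF array 4, where it was highest at 16203. These are the 2 farthest arrays, and without them Rgs5 followed the sum less closely than Mcam did. Over deviations from the means of the array sets, r was 0.89 for Mcam and 0.88 for Rgs5. Abcc9 had r = 0.71 and rho = 0.38 with the endothelial sum (adjusted permutation p = 0.119 and 0.486), and 0.91 over deviations from the means of the array sets. Cspg4 had r = 0.19.

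Myh11 varied with 12 thymic epithelial genes, with r = 0.83 and rho = 0.88 (adjusted permutation p = 0.0186 and 0.0078). Over deviations from the means of the array sets, r was 0.52, and without arrays 6 and 10 it was 0.93. Acta2 varied with 13 fibroblast genes, collagens and matrix proteins, with r = 0.73 and rho = 0.81 (adjusted permutation p = 0.0706 and 0.045), and 0.82 without arrays 6 and 10. Des had r = 0.69 with the cardiac sum, and -0.19 without arrays 6 and 10. With the skeletal muscle sum Cnn1 had r = 0.64 and Des r = 0.66 (adjusted permutation p = 0.305 and 0.251), and without arrays 6 and 10 these were 0.64 and 0.14. Of the 22 skeletal muscle genes, which include Actc1, 7 were above the olfactory receptor level, and Cnn1 was below it on every array. With the sum of 12 thymocyte genes r was below 0 for every member. It ran from -0.65 for Abcc9 to -0.076 for Cnn1 (adjusted permutation p = 0.197 and 0.832). Without arrays 6 and 10 these were -0.66 and 0.074. No relation with thymocyte genes passed after adjustment, by r or by rho.

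**Figure D4:**
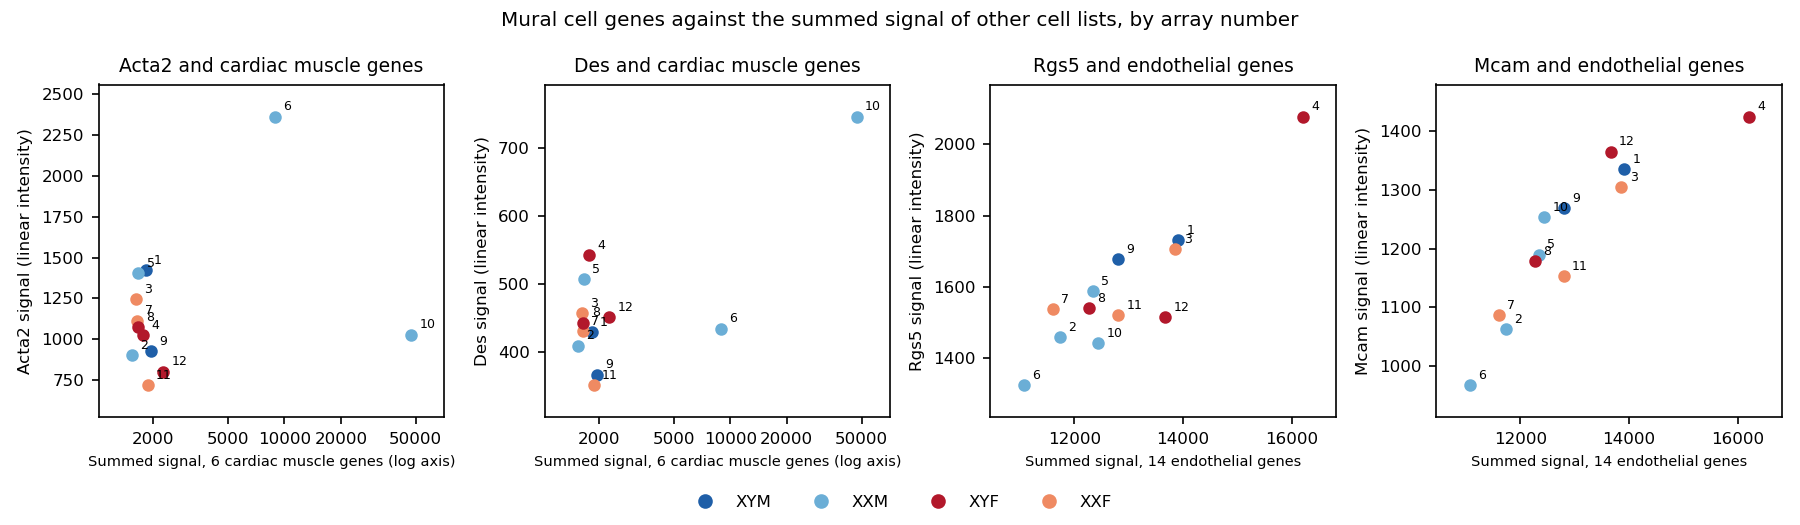
Signal of Acta2, Des, Rgs5 and Mcam (vertical axes, linear intensity) against the summed signal of 6 cardiac muscle genes (log axis) or 14 endothelial genes (linear axis). Points are arrays with their numbers, coloured by genotype. Array 6 is highest in Acta2 and array 10 in Des, while Mcam climbs with the endothelial sum from 967 on array 6 to 1425 on array 4.

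Genes most like a member over the 12 arrays were read as a description, among 10769 genes outside all lists. Closest to the mean standardised profile of the contractile genes were AW551984 (r = 0.90), Lmna (0.86), which encodes the nuclear lamins A and C, and Cdk14 (0.85), Cped1 (0.84) and Pamr1 (0.84). At the other end were Mcph1 (-0.86), Birc5 (-0.83), which encodes survivin of dividing cells, Ubtd1 (-0.82), Itgb2 (-0.82), a leukocyte integrin, and Mir6516 (-0.80). For the pericyte genes they were Apbb2 (0.94), Rgs16 (0.92), Cdc42bpb (0.91), Col6a2 (0.91) and Fgd5 (0.90), an endothelial exchange factor. The lowest were Tdrkh (-0.87), Ppp1r3b (-0.86), Siah2 (-0.84), Mcoln3 (-0.83) and Klhl11 (-0.83).

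Single genes, chosen after their values were seen, had different neighbours. Those of Rgs5 were Sparcl1 (0.94), Cd93 (0.93) and Clec14a (0.92), of which Cd93 and Clec14a encode surface proteins found on endothelium. The closest to Myh11 was Trp63 (0.97), which encodes the transcription factor p63 of thymic epithelium, and the lowest was Cxcr4 (-0.88). For Des it was Sorbs2 (0.91, and 0.78 without arrays 6 and 10), a protein of muscle Z-bands.

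The wider mural lists also held no call. Over all probe sets the shares called were 0.00281% for sex and 0.0394% for complement. Of 20 other contractile genes 0 passed for sex or complement. A male minus female difference above 0 was found for 11 of them, against 10563 of 19938 named genes. The median of the 20 was 0.084, and -0.0027 without arrays 6 and 10. The brightest were Flna, Actn1, Csrp1 and Vcl, which link actin to membranes and adhesions, with differences of -0.038, -0.064, -0.046 and -0.0099, male minus female. Lmod1, an actin nucleator of smooth muscle with a mean signal of 199, below the olfactory receptor level of 309.5, had 0.17 (SE 0.069, unadjusted p = 0.0272, limma adjusted p = 0.985).

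Chosen after its values were seen, Pln, the inhibitor of the calcium pump in heart and smooth muscle, read 395 on array 6 and 1022 on array 10, against 99.7 to 125 on the other arrays, all below 309.5. Itga8, an integrin chain of smooth muscle and mesenchyme, read 653 on array 6 and 267 on array 10, against 216 to 284. Other contractile genes, chosen in the same way, also stood out. Both arrays lay above the other 10 arrays in Tpm1 (1060 and 1625, against at most 905). The same was true of Casq2 and Nexn, whose mean signals of 155 and 95.5 were below 309.5. Array 10 alone lay above them in Smtn, Myl9 and Jph2, and array 6 alone in Actg2 and Itga8. Among the members, array 6 did so in Acta2, Tagln and Cnn1, and array 10 in Des.

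Of 20 measured other pericyte genes 0 passed for either factor. An XY minus XX difference above 0 was found for 15 of them, against 10595 of 19938 named genes. The median of the 20 was 0.043, and 0.079 without arrays 6 and 10. The brightest were Notch3, the mural Notch receptor, Enpep and Anpep, which are surface peptidases, and Cygb, with XY minus XX differences of 0.0032, 0.041, -0.19 and 0.038. Gja4, which encodes connexin 37, had 0.17 (SE 0.080, unadjusted p = 0.0583, limma adjusted p = 1.00).

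Of 12 regulators of mural genes 0 passed. Srf and its coactivator genes Mrtfa and Mrtfb had male minus female differences of -0.040, -0.053 and -0.0088. Myocd, the coactivator of cardiac and smooth muscle, read 237 and 357 on arrays 6 and 10, against 141 to 188 on the others, so that only its signal on array 10 was above 309.5. Klf4 had an XY minus XX difference of 0.18 (SE 0.064, unadjusted p = 0.0165, limma adjusted p = 1.00).

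Of 18 genes of mural signalling 0 passed. S1pr3, Tgfbr1, Tgfbr2 and Pdgfa were the brightest, with male minus female differences of -0.078, 0.023, -0.0053 and -0.0050. Angpt2, the endothelial ligand that loosens pericyte contact, had a mean signal of 251, below the olfactory receptor level, and a male minus female difference of -0.17 (SE 0.060, unadjusted p = 0.0132, limma adjusted p = 0.985). Pdgfb, the ligand of Pdgfrb, had an XY minus XX difference of 0.19 (SE 0.096, unadjusted p = 0.0679, limma adjusted p = 1.00). Edn1, which encodes the vasoconstrictor endothelin 1, had one of 0.17 (SE 0.073, unadjusted p = 0.0385, limma adjusted p = 1.00) at a mean signal of 168, also below that level.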

How the data were processed

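The deposited table held 1 linear signal intensity per probe set and array, from Affymetrix Mouse Gene 1.0 ST arrays. Per the labels, the submitters ran Affymetrix Expression Console 1.1, with PLIER also named. The methods name RMA with quantile normalization, so which of them made the deposited values is not settled here, and the settings are not given in the sources used here. Of 35556 probe sets, 21789 had 1 symbol, 1621 several and 12146 none. Intensities were floored at 1 (130 probe sets had a lower value), put on the log2 scale and fitted with limma, with 1 coefficient per genotype. Benjamini-Hochberg adjustment covered every probe set, with a threshold of 0.05. The fit was tested on simulated data with independent normal noise and no array sets. Recovery was required only for the largest planted difference, which was well above those reported here. The check therefore does not show how well small differences are found. Precision is limited by how few arrays there were. The members and lists were chosen with earlier results of these data known. Genes named were all members, up to 4 brightest and 4 of lowest p in each mural list, the 5 most and 5 least like each profile, and the brightest of other cell lists, and exceptions are named as chosen after seeing their values. Alternatives tried were quantile normalization run again, an offset of 16, probe sets of signal 200 or more, probe sets with 1 symbol, an additive model, the model of the methods, other moderation, array sets as a block, gene means and leaving out arrays. Leaving out XXM arrays 6 and 10 together was chosen after seeing the data.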

Additional observations from a re-analysis of the deposited data

Results flagged for a closer look

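By Dixon's test, the gap to the nearest array over the range, single arrays lay far from the rest in 9 of 50 groups of 4 to 7 arrays. The test used linear signals rather than the log2 scale of the fits, and every flag was at the high end. Chance gives about 1 in 20 for each group only if linear signals are normally distributed. Flags on the log2 scale and the share of flags over all genes are not given here, so no excess over chance is claimed. The groups overlap, since male, XX and XXM groups share arrays, so the 9 flags come from 6 values of a gene on an array and are not independent. Acta2 on XXM array 6 read 2362, against 1423 for the next highest male array and 1405 for the next highest XX array. Cnn1 on the same array read 234, against 153 among male arrays and 151 among XX arrays. Des on XXM array 10 read 745, against 507 in both groups. Cspg4 on XXM array 10 read 410, against 350 for the next highest XX array, and on XYF array 12 it read 425, against 344 among female arrays. Rgs5 on XYF array 4 read 2078, against 1705 for the next highest female array. Arrays 6 and 10 were the ones with high cardiac muscle signal, 8895 and 47121, and array 4 had the highest endothelial sum, 16203. The part of those cells in these values was not tested.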

How the results depend on the processing

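The counts of genes called, 0 of 10 for sex, complement, interaction and pairs of genotypes, were 0 in every alternative run, leaving out each array included (0 to 0). For complement, Mcam no longer had an unadjusted p under the threshold with array sets as a block, in the methods' model, without XXM arrays 6 and 10, or in 7 of 12 fits without 1 array (arrays 1, 2, 4, 6, 7, 9 and 11), while renewed quantile normalization put Rgs5 under it too. The median correlation of pairs was 0.42 without XXM arrays 6 and 10, and 0.090 to 0.32 when each array was left out, with the lowest without XYF array 4. Of the uncalled differences, male minus female of Myh11 was 0.018 after renewed quantile normalization, 0.00062 with array sets as a block and 0.015 without arrays 6 and 10, and that of Pdgfrb 0.0036 after renewed quantile normalization and 0.00092 in the additive model. Without arrays 6 and 10, male minus female was -0.059 for Des and -0.013 for Cspg4, and XY minus XX of Des was 0.0085. XY minus XX of Acta2 was 0.00050 with array sets as a block. Leaving out each array gave male minus female ranges of -0.065 to 0.052 for Myh11, -0.070 to 0.078 for Des, -0.013 to 0.085 for Cspg4, -0.082 to 0.041 for Pdgfrb, -0.099 to 0.015 for Rgs5 and -0.16 to 0.0096 for Abcc9. For XY minus XX they were -0.29 to 0.022 for Acta2, -0.0014 to 0.094 for Tagln, -0.00049 to 0.12 for Myh11, -0.13 to 0.020 for Des and -0.028 to 0.094 for Pdgfrb. Causes of these turns were not tested. Cnn1 has no value among probe sets of signal 200 or more. The labels give each array its own number and pair none across genotypes, so array sets stood in as a block. With 2 XYM arrays, contrasts with XYM had the widest errors.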
